A study of Mus musculus with 2 samples.

Results

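Collagen genes were examined in single nuclei of the spinal dynorphin lineage. Every symbol of the count table made of Col, digits, the letter a and digits was taken, which gave 44 of 19575 genes. The 43 with at least 20 unique molecular identifiers (UMIs, counts of distinct captured transcripts) over all 7610 nuclei were kept as members. Col1a1, a chain of type I collagen, had 7 UMIs and was left out. The injured group was adult mice with a left plantar hindpaw incision at postnatal day 3, and the naive group was adult littermate controls exposed to isoflurane on that day. All carried Pdyn-IRES-Cre(+/-); R26-LSL-Sun1.eGFP(+/-), so that Cre driven from the prodynorphin gene switched on a green nuclear-envelope reporter in any cell that had ever used the gene. Reporter-positive nuclei from lumbar (L3-L5) dorsal cord were sorted, pooled from 8 mice of either sex per group, and made into 1 droplet library of nuclear RNA per group. With 1 pooled library per group no test was possible, and every 95% interval below covers counting error only.

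Collagens are proteins whose chains wind into triple helices. Fibrillar collagens form the fibrils of connective tissue, and FACIT collagens sit on the surface of those fibrils. Network collagens such as type IV build basement membranes, and membrane collagens stay anchored in the cell surface and can be shed. In the cord most collagen protein surrounds vessels and the pial surface, while some members act at axons and synapses.

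The injured library held 3547 nuclei with 32934588 UMIs (median 8464 per nucleus), and the naive library held 4063 nuclei with 30602222 UMIs (median 6955). The libraries shared 3 barcode sequences. Classes were rebuilt by clustering with no collagen gene among the genes used, and were named from markers, so they may differ from those of the study. Inhibitory-like nuclei (named from Gad1, Gad2, Slc32a1 and Slc6a5, which make or carry GABA and glycine) numbered 2119 in the injured and 2561 in the naive library. Excitatory-like nuclei, with the glutamate transporter gene Slc17a6, numbered 531 injured and 652 naive. Slc17a6 stood at 236 injured and 246 naive CPM (counts per 1e+06 UMIs of the class) in excitatory-like nuclei, against 3.42 injured and 4.33 naive CPM in inhibitory-like ones. Pdyn stood at 36.8 injured and 37.2 naive CPM in inhibitory-like nuclei, and at 43.7 injured and 43.2 naive CPM in excitatory-like nuclei. Glia-like nuclei (astrocyte-like 47 injured and 52 naive, oligodendrocyte-like 45 injured and 42 naive) held 0 Pdyn UMIs. A further 757 injured and 650 naive nuclei stayed unnamed, among them clusters 7 and 19, which carried Slc17a6 but had a marker of another cell type among their 10 leading genes.

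A few genes held most of the counts. Col11a1 had 21.9% of the 46049 UMIs of the 43 members, and the 6 with most UMIs (Col11a1, Col4a2, Col25a1, Col26a1, Col19a1 and Col6a1) had 57.6%. Summed over the members, excitatory-like nuclei stood at 991 CPM (965 to 1018) in the injured and 1079 CPM (1052 to 1106) in the naive library, against 577 CPM (566 to 588) injured and 636 CPM (624 to 647) naive in inhibitory-like nuclei. Without Col11a1 the sums were 632 injured and 691 naive CPM in excitatory-like nuclei, against 537 injured and 584 naive CPM in inhibitory-like nuclei. Between these neuron classes the excitatory-like sum was the higher one in each library, by a smaller margin once Col11a1 was taken out. Astrocyte-like nuclei stood at 696 CPM (598 to 806) on 179 injured UMIs and 1165 CPM (993 to 1358) on 163 naive UMIs. Without Col11a1 they were at 646 CPM (551 to 752) injured and 1072 CPM (907 to 1258) naive. Oligodendrocyte-like nuclei had the lowest sums of the classes, 137 CPM (82.5 to 214) on 19 injured UMIs and 115 CPM (59.6 to 201) on 12 naive UMIs. Col4a1, Col4a2 and Col11a1 had 0 UMIs there in each library, which, at a floor of 3 counts, allows a level of up to 21.6 CPM in the injured and 28.8 CPM in the naive library.

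A gene was said to mark a class when its CPM there was at least 2-fold that of the comparison class in both libraries. Against excitatory-like nuclei, 7 of 43 members marked inhibitory-like nuclei (16.3%, against 3.63% of the 17733 genes with at least 20 UMIs). In the other direction 8 marked excitatory-like nuclei (18.6%, against 6.08% of all genes). Against both neuron classes together, 11 marked glia-like nuclei (25.6%, against 12.4%). Since Col9a1 and Col11a2 each marked a neuron class and glia, 24 members marked at least 1 class. The median log2 ratio of inhibitory-like over excitatory-like CPM was -0.15 injured and -0.17 naive for the members, and -0.06 in each library for all genes. For glia-like over neuronal CPM it was -0.48 injured and 0.53 naive for the members, against -0.14 injured and -0.23 naive for all genes. By protein type, 4 of 10 fibrillar, 2 of 9 FACIT and 2 of 4 membrane members marked excitatory-like nuclei. The inhibitory-like members were 3 of 9 network collagens and 1 each of the fibrillar, FACIT, beaded and multiplexin types.

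**Figure D1:**
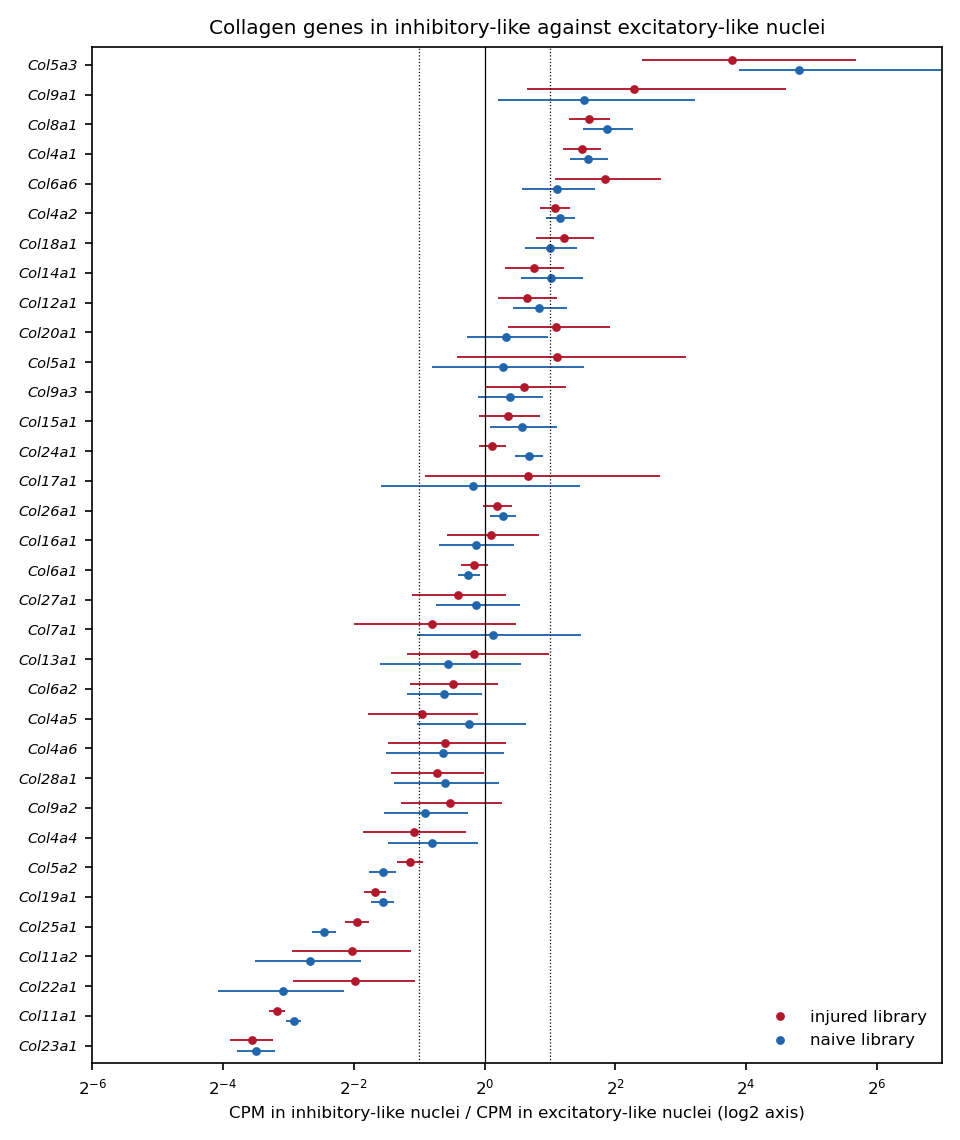
Ratio of inhibitory-like to excitatory-like CPM (log2 axis) for the 34 collagen genes with at least 20 UMIs in these classes in each library, with 95% counting intervals; red is the injured and blue the naive library, and dotted lines mark 2-fold either way. Col5a3 stands highest, with a naive interval running past the right edge, and Col23a1 stands lowest in both libraries.

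Among the inhibitory-like network collagens were the neighbours Col4a1 and Col4a2. Their products make up the most widespread type IV collagen, the sheet-forming protein of basement membranes. The genes lie head to head on mouse chromosome 8 (mm10), Col4a1 at 11198423 to 11312826 on the minus strand and Col4a2 at 11312805 to 11449287 on the plus strand, so that they overlap by 22 bases at their starts. The other type IV genes form like pairs, Col4a3 with Col4a4 on chromosome 1 (71 bases between them) and Col4a5 with Col4a6 on the X chromosome (1308 bases between them). RefSeq promoter windows from 250 bases before to 50 bases after the start (GRCm38.p6), which 35 of the 43 members had, are shown for the pair that marked inhibitory-like nuclei and for the X-linked pair, of which one member marked glia. Capitals mark the letters of the GC box GGGCGG, the CCAAT box CCAAT and the TATA box TATAAA on either strand. The windows are chr8:11312777-11313076 (minus strand) for Col4a1, chr8:11312555-11312854 (plus) for Col4a2, chrX:141475169-141475468 (plus) for Col4a5 and chrX:141474027-141474326 (minus) for Col4a6.
Col4a1: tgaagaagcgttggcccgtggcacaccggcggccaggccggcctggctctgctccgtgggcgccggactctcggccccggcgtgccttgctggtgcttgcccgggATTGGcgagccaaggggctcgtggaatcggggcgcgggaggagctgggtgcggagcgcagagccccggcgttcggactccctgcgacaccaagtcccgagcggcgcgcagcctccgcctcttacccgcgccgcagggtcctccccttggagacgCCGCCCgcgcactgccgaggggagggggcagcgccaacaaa
Col4a2: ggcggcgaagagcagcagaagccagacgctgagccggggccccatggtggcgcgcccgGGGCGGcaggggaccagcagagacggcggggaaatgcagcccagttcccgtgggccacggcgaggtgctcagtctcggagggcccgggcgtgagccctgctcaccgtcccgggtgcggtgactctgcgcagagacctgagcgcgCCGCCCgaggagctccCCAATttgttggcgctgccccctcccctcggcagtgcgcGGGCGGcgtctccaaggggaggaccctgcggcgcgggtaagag
Col4a5: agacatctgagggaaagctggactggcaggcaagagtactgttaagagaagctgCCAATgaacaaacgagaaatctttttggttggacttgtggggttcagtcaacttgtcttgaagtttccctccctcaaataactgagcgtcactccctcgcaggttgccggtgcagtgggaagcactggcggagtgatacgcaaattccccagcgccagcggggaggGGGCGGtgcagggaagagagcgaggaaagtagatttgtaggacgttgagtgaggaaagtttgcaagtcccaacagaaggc
Col4a6: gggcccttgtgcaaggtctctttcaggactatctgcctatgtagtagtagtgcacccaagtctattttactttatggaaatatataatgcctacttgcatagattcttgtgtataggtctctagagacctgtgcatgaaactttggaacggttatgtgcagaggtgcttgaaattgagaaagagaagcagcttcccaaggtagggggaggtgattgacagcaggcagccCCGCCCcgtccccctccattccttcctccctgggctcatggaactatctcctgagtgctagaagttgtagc

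The Col4a1 and Col4a2 windows share 78 bases, read from opposite strands. Col4a1 holds 1 GC box and 1 CCAAT box, and Col4a2 holds 3 GC boxes and 1 CCAAT box. The GC box of Col4a1 lies in the shared bases and is the last of the 3 in Col4a2, read from the other strand. Col4a5 holds 1 of each, Col4a6 holds 1 GC box, and none of the 4 windows holds a TATA box. Over 32851 RefSeq windows of this length, 35.7% hold a GC box, 37.4% a CCAAT box and 13.6% a TATA box, so these matches are common ones. CpG pairs numbered 37 in the Col4a1 and 33 in the Col4a2 window, against 11 for Col4a5, 3 for Col4a6 and a median of 7 over all windows. The matches describe letters only, and binding was not measured.

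Both genes of the chromosome 8 pair were higher in inhibitory-like nuclei. Col4a1 had 968 UMIs (55.1 CPM, 51.7 to 58.7) in injured and 1057 UMIs (58.6 CPM, 55.1 to 62.3) in naive inhibitory-like nuclei, against 110 UMIs (19.6 CPM) in injured and 110 UMIs (19.5 CPM) in naive excitatory-like nuclei. Its ratio was 2.81 (2.30 to 3.45) in the injured and 3.01 (2.47 to 3.70) in the naive library. Col4a2 had 1226 UMIs (69.8 CPM, 65.9 to 73.8) in injured and 1370 UMIs (76.0 CPM, 72.0 to 80.1) in naive inhibitory-like nuclei, against 186 UMIs (33.2 CPM) in injured and 192 UMIs (34.0 CPM) in naive excitatory-like nuclei. The levels of each gene were close between libraries and apart between classes, with a Col4a2 ratio of 2.10 (1.80 to 2.46) injured and 2.23 (1.92 to 2.61) naive.

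Over the 22 clusters with at least 30 nuclei in each library, the Spearman correlation of Col4a1 with Col4a2 CPM was 0.84 injured and 0.85 naive, a description of clusters that share libraries and depth. Both were high in inhibitory-like clusters 0 (led by Igf1, Nox4 and Tacr3) and 4 (led by Pamr1 and Nos1). Col4a1 was at 80.7 CPM (71.4 to 90.9) injured and 86.8 CPM (78.0 to 96.3) naive in cluster 0, and Col4a2 at 90.8 CPM (80.9 to 102) injured and 99.9 CPM (90.4 to 110.1) naive. Both were low in inhibitory-like cluster 8 (led by Tac2 and Adamts9), where Col4a1 was at 8.40 CPM (4.03 to 15.4) injured and 25.8 CPM (16.98 to 37.5) naive. Nuclei like those of CSF-contacting neurons (CSF, cerebrospinal fluid), 48 injured and 106 naive with the channel gene Pkd2l1, had Col4a2 at 87.9 CPM (58.4 to 127) injured and 95.9 CPM (72.0 to 125) naive, near the highest inhibitory-like clusters. Without cluster 0 the Col4a1 ratio was 2.50 injured and 2.59 naive, and the Col4a2 ratio was 1.95 injured and 2.03 naive. With clusters 7 and 19 added to the excitatory-like class, Col4a1 still marked inhibitory-like nuclei and Col4a2 did not. Endothelial and mural cells also make type IV collagen, and the part of their RNA in these counts was not tested. The endothelial list (5 of 6 in the table, none at 0 in either neuron class) summed to 8.82 injured and 8.93 naive CPM in inhibitory-like nuclei, against 15.2 injured and 19.3 naive CPM in excitatory-like nuclei. Most of that gap was 1 marker, Adgrl4, at 1.76 injured and 0.776 naive CPM in inhibitory-like nuclei, against 7.86 injured and 11.7 naive CPM in excitatory-like nuclei. The mural list (5 of 6 in the table) summed to 20.9 injured and 26.3 naive CPM in inhibitory-like nuclei, against 21.8 injured and 26.0 naive CPM in excitatory-like nuclei, where 2 injured and 1 naive of its markers were at 0. Most of the mural sum was Notch3, and Abcc9 was higher in inhibitory-like nuclei, at 3.64 injured and 4.33 naive CPM, against 0.536 injured and 1.06 naive CPM in excitatory-like nuclei.

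**Figure D2:**
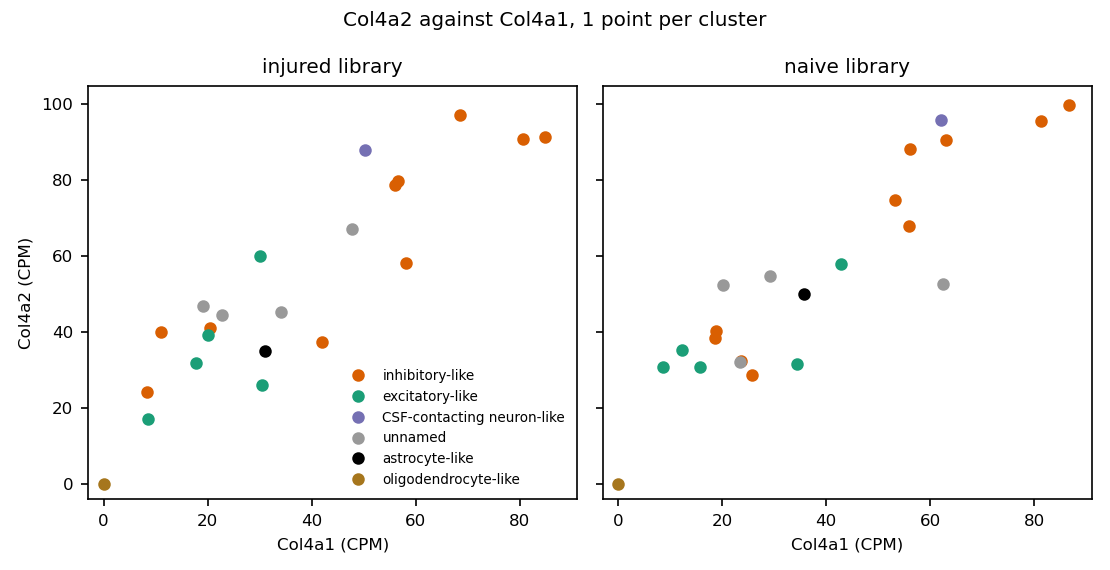
Col4a2 CPM against Col4a1 CPM in each of 22 clusters, 1 point per cluster coloured by class, in the injured (left) and the naive library (right). Points with high Col4a1 have high Col4a2 in each library, most of them inhibitory-like, and oligodendrocyte-like nuclei are at 0 for both.

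The other type IV genes had few counts. Col4a3, Col4a4 and Col4a6 marked no class, on 81, 219 and 155 UMIs over all nuclei. Over the same clusters the correlation was 0.34 injured and 0.09 naive for Col4a5 with Col4a6, and 0.24 injured and 0.45 naive for Col4a3 with Col4a4, at counts too low to read as a pattern.

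Col8a1, a short-chain network collagen known from vessel walls and the cornea, had 885 UMIs (50.4 CPM, 47.1 to 53.8) in injured and 726 UMIs (40.3 CPM, 37.4 to 43.3) in naive inhibitory-like nuclei, against 93 UMIs (16.6 CPM) in injured and 62 UMIs (11.0 CPM) in naive excitatory-like nuclei. The ratio was 3.03 (2.45 to 3.798) injured and 3.67 (2.83 to 4.83) naive. Its counts were concentrated in inhibitory-like clusters 12 (led by Atp10a and Ebf2) and 9 (led by Mgmt, Otof and Nppc). Cluster 12 was at 241 CPM (210.1 to 275) injured and 194 CPM (169 to 222) naive, and cluster 9 at 231 CPM (203 to 261) injured and 179.9 CPM (153 to 209.6) naive. Cluster 4, one of the highest for Col4a1, was at 5.59 injured and 5.06 naive CPM, while Col4a2 was also high in cluster 12, at 97.3 CPM (78.0 to 119.9) injured and 88.4 CPM (71.6 to 108) naive. Unnamed cluster 7 (led by Unc5cl and Moxd1) was at 103 injured and 85.7 naive CPM. With clusters 7 and 19 added to the excitatory-like class the Col8a1 ratio was 1.27 injured and 1.35 naive, under 2-fold.

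Col18a1, the heparan sulfate-bearing basement membrane collagen whose end fragment is endostatin, lay at the limit. It had 364 UMIs (20.7 CPM) in injured and 398 UMIs (22.1 CPM) in naive inhibitory-like nuclei, against 50 UMIs (8.93 CPM) in injured and 62 UMIs (11.0 CPM) in naive excitatory-like nuclei, for ratios of 2.32 (1.72 to 3.18) injured and 2.01 (1.54 to 2.67) naive. Inhibitory-like cluster 11 (led by Pax5, Rxfp2 and Cdh9) had the highest level, 89.6 CPM (73.3 to 108) injured and 110.2 CPM (91.6 to 132) naive. Without it the ratio was 1.77 injured and 1.48 naive, and with clusters 7 and 19 added it also fell under 2-fold.

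Col5a3, a chain of the fibril-regulating type V collagen, had the widest gap among the inhibitory-like members. It had 174 UMIs (9.90 CPM, 8.49 to 11.5) in injured and 268 UMIs (14.9 CPM, 13.1 to 16.8) in naive inhibitory-like nuclei, against 4 UMIs (0.714 CPM) in injured and 1 UMI (0.177 CPM) in naive excitatory-like nuclei. The ratio was 13.9 (5.32 to 51.5) in the injured library and 28.0 in the naive one with the excitatory-like count set to 3 UMIs, with a lower counting bound of 14.9. Among inhibitory-like clusters, cluster 1 (led by Mlxipl, Pde11a and Gucy2d) was highest at 31.7 CPM (25.8 to 38.6) injured and 34.7 CPM (28.5 to 41.9) naive. Clusters 9 and 12, the highest for Col8a1, had 0 Col5a3 UMIs in each library. Astrocyte-like nuclei had 7 UMIs (27.2 CPM, 10.9 to 56.1) injured and 4 UMIs (28.6 CPM, 7.79 to 73.2) naive, which these counts cannot tell from the level of cluster 1.

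Col6a6, a chain of the beaded-filament type VI collagen, had 168 UMIs (9.56 CPM) in injured and 220 UMIs (12.2 CPM) in naive inhibitory-like nuclei, against 15 UMIs (2.68 CPM) in injured and 32 UMIs (5.67 CPM) in naive excitatory-like nuclei. Its ratio was 3.57 (2.10 to 6.52) injured and 2.15 (1.48 to 3.23) naive. It lay mostly in the Nos1 clusters, cluster 4 at 45.8 injured and 41.4 naive CPM and cluster 5 at 25.1 injured and 43.2 naive CPM, and without cluster 4 the ratio was 1.87 injured and 1.45 naive. Col9a1, a FACIT chain of cartilage fibrils, had 46 UMIs (2.62 CPM) in injured and 46 UMIs (2.55 CPM) in naive inhibitory-like nuclei, against 3 UMIs (0.536 CPM) in injured and 5 UMIs (0.885 CPM) in naive excitatory-like nuclei. Its ratios of 4.89 (1.57 to 24.6) injured and 2.88 (1.15 to 9.29) naive rest on few counts. Cluster 1 held 22 injured and 29 naive of its inhibitory-like UMIs, and without cluster 1 the ratio was 3.10 injured and 1.29 naive. When the highest cluster of each member was left out, 3 of the 7 stayed at 2-fold or more in both libraries: Col4a1, Col5a3 and Col8a1. With each nucleus classed by its own transmitter counts instead, 3 of the 7 marked the class: Col4a1, Col5a3 and Col6a6.

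**Figure D3:**
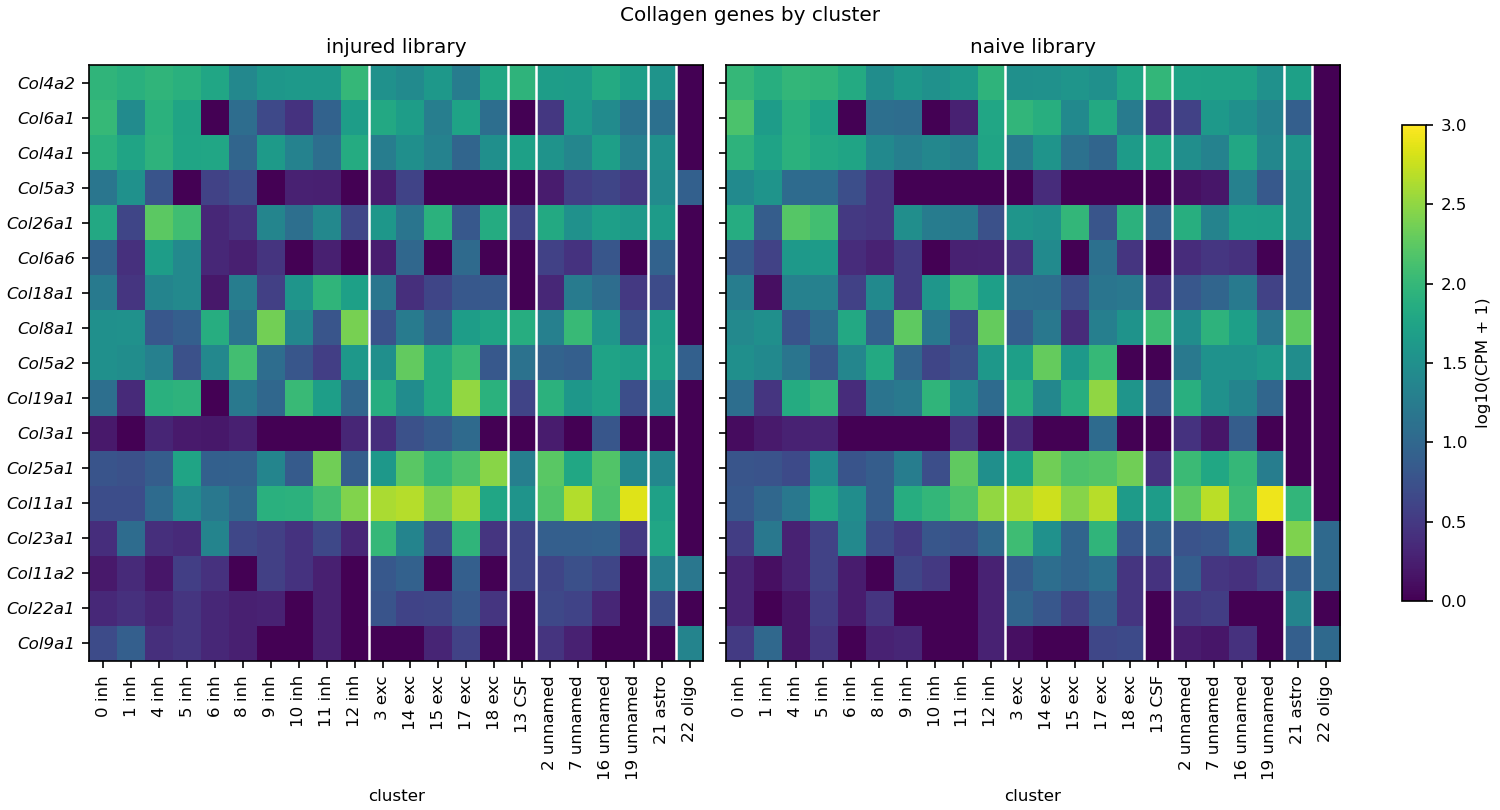
Collagen genes that marked a neuron class or were among the 6 with most UMIs, in the 22 clusters with at least 30 nuclei in each library (injured left, naive right), coloured by log10(CPM + 1) of summed counts. Most genes peak in a few clusters, and Col11a1 is brightest in unnamed cluster 19 and then in excitatory-like cluster 14 in each library.

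Among the fibrillar collagens that marked excitatory-like nuclei, Col11a1 had the most counts. It lies on chromosome 3 (114030540 to 114220718, plus strand) and encodes a chain of type XI collagen, which starts and limits fibril growth in cartilage. It had 2009 UMIs (359 CPM, 343 to 375) in injured and 2194 UMIs (388 CPM, 372 to 405) in naive excitatory-like nuclei, against 697 UMIs (39.7 CPM, 36.8 to 42.7) in injured and 925 UMIs (51.3 CPM, 48.0 to 54.7) in naive inhibitory-like nuclei. The ratio was 9.04 (8.29 to 9.87) injured and 7.57 (7.01 to 8.19) naive. Clusters within a class spread widely. Excitatory-like clusters ran from 58.1 CPM in cluster 18 (led by Megf11, Tac1 and Cck) to 461 CPM in cluster 14 (led by Tshr, Nms and Calb1) in the injured library, and from 42.9 to 585 CPM in the same clusters of the naive library. Inhibitory-like clusters ran from 4.16 to 267 CPM in the injured and from 5.67 to 327 CPM in the naive library, with cluster 12 at the top of each. So inhibitory-like cluster 12 lay above excitatory-like cluster 18, and the classes overlapped by cluster. The highest level of all was in unnamed cluster 19 (led by Skor2 and Rxfp1, with Slc17a6), at 713 CPM (639 to 794) injured and 836 CPM (742 to 939) naive. Its clusters stood in nearly the same order in both libraries (Spearman 0.98 over 22 clusters).

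The other fibrillar members of the excitatory-like group had fewer counts, and Col5a2 and Col3a1 no longer marked the class with nuclei classed by their own transmitter counts. Col5a2, a chain of type V collagen, had 347 UMIs (62.0 CPM) in injured and 376 UMIs (66.6 CPM) in naive excitatory-like nuclei, against 492 UMIs (28.0 CPM) in injured and 407 UMIs (22.6 CPM) in naive inhibitory-like nuclei, for ratios of 2.21 (1.92 to 2.54) injured and 2.95 (2.56 to 3.40) naive. It was highest in cluster 14, at 191 CPM (159 to 227) injured and 192 CPM (162 to 227) naive, and cluster 18 had 3 injured and 0 naive UMIs. Inhibitory-like cluster 8 reached 121 CPM (102 to 142) injured and 64.9 CPM (50.4 to 82.3) naive, above most excitatory-like clusters in the injured library. Without cluster 14 the Col5a2 ratio was 1.60 injured and 2.13 naive, and with clusters 7 and 19 added it was 1.64 injured and 2.53 naive. Col11a2, which can join Col11a1 in one trimer, had 26 UMIs (4.64 CPM) in injured and 42 UMIs (7.44 CPM) in naive excitatory-like nuclei, against 20 UMIs (1.14 CPM) in injured and 21 UMIs (1.16 CPM) in naive inhibitory-like nuclei, for ratios of 4.08 (2.19 to 7.70) injured and 6.39 (3.70 to 11.4) naive. Col3a1, the fibrillar collagen of stretchable tissues, had 20 UMIs (3.57 CPM) in injured and 10 UMIs (1.77 CPM) in naive excitatory-like nuclei, against 8 UMIs (0.455 CPM) in injured and 9 UMIs (0.499 CPM) in naive inhibitory-like nuclei, for ratios of 7.84 (3.31 to 20.6) injured and 3.55 (1.30 to 9.87) naive. Cluster 17 (led by Esr1, Th and Tac1) held 7 injured and 6 naive of these Col3a1 UMIs, and without it the ratio was 5.82 injured and 1.58 naive. Col3a1 is abundant in fibroblasts, whose markers (5 of 6 in the table, 1 at 0 in injured excitatory-like and 1 in naive inhibitory-like nuclei) summed to 4.11 injured and 5.49 naive CPM in excitatory-like nuclei, against 3.24 injured and 3.99 naive CPM in inhibitory-like nuclei. Their part in the Col3a1 counts was not tested.

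Membrane collagens followed. Col25a1, which can be shed, binds amyloid beta and is needed in mice for motor axons to innervate muscle, had 566 UMIs (101 CPM, 92.9 to 109.8) in injured and 646 UMIs (114 CPM, 106 to 124) in naive excitatory-like nuclei, against 459 UMIs (26.1 CPM) in injured and 375 UMIs (20.8 CPM) in naive inhibitory-like nuclei. Its ratio was 3.87 (3.41 to 4.38) injured and 5.50 (4.84 to 6.26) naive. Excitatory-like cluster 18, the one with least Col11a1, was the highest for Col25a1, at 289 CPM (245 to 338) injured and 224 CPM (186 to 268) naive. Inhibitory-like cluster 11 came next to it in the injured library, at 224 CPM (197 to 252) injured and 184 CPM (159 to 211) naive, and held 262 of the 459 injured and 205 of the 375 naive inhibitory-like UMIs. The median inhibitory-like cluster was far lower, at 7.03 injured and 5.93 naive CPM, so 1 inhibitory-like cluster carried most of the class level.

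Col23a1 had the largest ratio among the 8. It had 357 UMIs (63.7 CPM, 57.3 to 70.7) in injured and 445 UMIs (78.8 CPM, 71.6 to 86.5) in naive excitatory-like nuclei, against 95 UMIs (5.41 CPM) in injured and 126 UMIs (6.99 CPM) in naive inhibitory-like nuclei, for ratios of 11.8 (9.38 to 14.9) injured and 11.3 (9.23 to 13.9) naive. Excitatory-like cluster 3 (led by Aldh1a2, Myo5b and Gfra1) held 77.0% of the injured and 80.9% of the naive excitatory-like UMIs of Col23a1. Cluster 17 was nearly as high in level, at 90.2 injured and 90.4 naive CPM against 99.3 injured and 118 naive CPM in cluster 3. Without cluster 3 the ratio was 5.36 (3.94 to 7.28) injured and 4.70 (3.53 to 6.24) naive.

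The FACIT collagens gave Col19a1 and Col22a1. Col19a1, known in mice for a part in synapse formation in the brain, had 555 UMIs (99.1 CPM, 91.0 to 108) in injured and 507 UMIs (89.8 CPM, 82.1 to 97.9) in naive excitatory-like nuclei, against 545 UMIs (31.0 CPM) in injured and 549 UMIs (30.4 CPM) in naive inhibitory-like nuclei, for ratios of 3.19 (2.83 to 3.60) injured and 2.95 (2.61 to 3.33) naive. Cluster 17 was highest, at 328 CPM (287 to 373) injured and 317 CPM (273 to 366) naive. Without it the ratio was 2.14 injured and 2.08 naive, still over 2-fold. Inhibitory-like cluster 10 (led by Fbxl7 and Nxph2) reached 108 injured and 91.4 naive CPM, above excitatory-like cluster 3 at 73.3 injured and 75.1 naive CPM. Col22a1, a collagen of tissue junctions such as that of muscle and tendon, had 24 UMIs (4.29 CPM) in injured and 37 UMIs (6.55 CPM) in naive excitatory-like nuclei, against 19 UMIs (1.08 CPM) in injured and 14 UMIs (0.776 CPM) in naive inhibitory-like nuclei, for ratios of 3.96 (2.08 to 7.65) injured and 8.44 (4.46 to 16.9) naive. Like Col23a1 it lay mostly in cluster 3, with 14 injured and 26 naive of these UMIs.

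Most adjacent collagen genes did not mark the same class. Among 8 adjacent pairs within 100 kb, Col4a1 and Col4a2 both marked inhibitory-like nuclei. Col3a1 and Col5a2, tail to tail on chromosome 1 with 24614 bases between them, both marked excitatory-like nuclei. No other pair marked the same class. Col9a1 and Col19a1, tail to tail on chromosome 1 with 9205 bases between them, marked opposite neuron classes. Col6a6 marked inhibitory-like and its neighbour Col6a5 glia-like nuclei. Col6a5 and Col4a5 marked glia-like nuclei beside Col6a4 and Col4a6, which marked no class. Neither gene marked a class in the pairs Col4a3 with Col4a4 and Col6a1 with Col6a2. Whether strand was used in counting is not given in the sources used here.

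Col26a1, first described in testis and ovary, and Col6a1, a core chain of type VI collagen, were among the 6 with most UMIs and marked no class. Col26a1 had 827 UMIs (47.1 CPM) in injured and 977 UMIs (54.2 CPM) in naive inhibitory-like nuclei, against 230 UMIs (41.1 CPM) in injured and 252 UMIs (44.6 CPM) in naive excitatory-like nuclei, for ratios of 1.15 (0.989 to 1.33) injured and 1.21 (1.06 to 1.40) naive. Near-level classes hid steep differences between clusters, and the Nos1 clusters were highest, cluster 4 at 174 CPM (156 to 193) injured and 159.6 CPM (143 to 177) naive. Col6a1 had 749 UMIs (42.6 CPM) in injured and 1083 UMIs (60.1 CPM) in naive inhibitory-like nuclei, against 267 UMIs (47.7 CPM) in injured and 402 UMIs (71.2 CPM) in naive excitatory-like nuclei, for ratios of 0.894 (0.777 to 1.03) injured and 0.844 (0.752 to 0.948) naive. It was highest in inhibitory-like cluster 0, at 100.3 CPM (89.9 to 112) injured and 141 CPM (129.9 to 153) naive, and had 0 UMIs in inhibitory-like cluster 6 in each library. In all, 19 members marked no class, 7 of them with under 100 UMIs. The other 12 had inhibitory-like over excitatory-like ratios from 0.472 to 2.14 in the injured and from 0.534 to 2.03 in the naive library. Just outside the limit was Col14a1, at 1.68 injured and 2.03 naive, and just inside were Col18a1 and Col4a2. On the excitatory-like side Col5a2 was just inside, and Col4a4 was just outside at 2.12 injured and 1.75 naive.

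Glia-like calls rest on few counts, since the 92 injured and 94 naive glia-like nuclei held 395773 injured and 244067 naive UMIs in all. Of the 11, Col4a5, Col8a2 and Col12a1 had a lower counting bound above 1 in both libraries, and all their glia-like UMIs were in astrocyte-like nuclei. Col4a5, a type IV chain of specialised basement membranes such as that of the kidney filter, had 13 UMIs (32.8 CPM, 17.5 to 56.2) in injured and 12 UMIs (49.2 CPM, 25.4 to 85.9) in naive glia-like nuclei. Inhibitory-like nuclei were at 1.94 injured and 2.72 naive CPM, and excitatory-like nuclei at 3.75 injured and 3.19 naive CPM. The glia ratio was 13.8 (6.93 to 25.7) injured and 17.4 (8.56 to 32.4) naive, from 11 injured and 8 naive nuclei. Its neighbour Col4a6, whose window is printed above, had 1 injured and 2 naive glia-like UMIs, too few to place.

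Col8a2, the partner chain of Col8a1, had 8 UMIs (20.2 CPM, 8.73 to 39.8) in injured and 6 UMIs (24.6 CPM, 9.02 to 53.5) in naive glia-like nuclei. Its neuronal counts were 9 injured and 2 naive inhibitory-like UMIs and 3 injured and 6 naive excitatory-like UMIs, for glia ratios of 39.0 (13.8 to 104) injured and 72.8 (20.8 to 239) naive. Col12a1, a FACIT collagen bound to type I fibrils, had 11 UMIs (27.8 CPM, 13.9 to 49.7) in injured and 11 UMIs (45.1 CPM, 22.5 to 80.6) in naive glia-like nuclei. Its margin was narrow, with ratios of 2.14 (1.06 to 3.88) injured and 2.61 (1.29 to 4.72) naive. Inhibitory-like cluster 5 (led by Sema3c and Nos1), at 84.4 injured and 106 naive CPM, had a higher value than astrocyte-like nuclei, at 42.8 CPM (21.4 to 76.5) injured and 78.6 CPM (39.2 to 141) naive, though the naive interval includes the level of cluster 5. When nuclei were classed by their own marker counts, Col8a2 and Col12a1 no longer marked glia-like nuclei and Col4a5 still did.

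The other 8 glia-like calls had between 1 and 9 glia-like UMIs in each library, so that 1 or 2 molecules decide some of them. Col9a3, a chain of type IX collagen, had 9 injured and 6 naive UMIs, for ratios of 3.25 (1.46 to 6.33) injured and 2.62 (0.952 to 5.80) naive. Col11a2 had 7 injured and 2 naive UMIs, for ratios of 8.91 (3.39 to 19.9) and 3.08 (0.365 to 11.6) in the injured and naive library. Col1a2, the other chain of type I collagen, had 3 injured UMIs and 1 naive UMI, for ratios of 58.5 (7.84 to 437) and 16.2 (0.352 to 133). Its counts lay mainly elsewhere: of 21 injured and 30 naive Col1a2 UMIs, 15 injured and 23 naive ones were in unnamed nuclei, among them those of cluster 16 with Schwann cell markers. Col27a1, a fibrillar collagen of cartilage, Col13a1, a membrane collagen of the neuromuscular junction, Col9a1, Col5a1 and Col6a5 had between 1 and 5 glia-like UMIs in each library.

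Col23a1 and Col8a1, which marked neuron classes, also had glia-like counts that differed between libraries. Col23a1 had 15 UMIs (58.3 CPM, 32.6 to 96.2) in injured and 37 UMIs (264 CPM, 186 to 364) in naive astrocyte-like nuclei. It missed the glia call by the injured value, with ratios of 1.94 (1.08 to 3.24) injured and 6.46 (4.52 to 8.97) naive. Col8a1 had 12 UMIs (46.7 CPM, 24.1 to 81.5) in injured and 25 UMIs (179 CPM, 116 to 264) in naive astrocyte-like nuclei, from 4 injured and 8 naive nuclei. Of the naive Col8a1 UMIs, 10 were in 1 nucleus, and the interval leaves out such spread between nuclei. Depth also differed, with a median of 3503 UMIs per injured and 2126 per naive astrocyte-like nucleus. Neuron markers differed too in glia-like nuclei, with Syt1 at 622 injured and 143 naive CPM and Meg3 at 2721 injured and 918 naive CPM. The part of depth and of neuronal RNA was not tested. Schwann cell markers (5 of 5 in the table, 2 of them at 0 in glia-like nuclei of each library) summed to 119 injured and 197 naive CPM in glia-like nuclei, against 11.8 injured and 12.7 naive CPM in inhibitory-like nuclei. Fibroblast markers had 1 UMI in glia-like nuclei of each library, with 4 of 5 markers at 0.

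**Figure D4:**
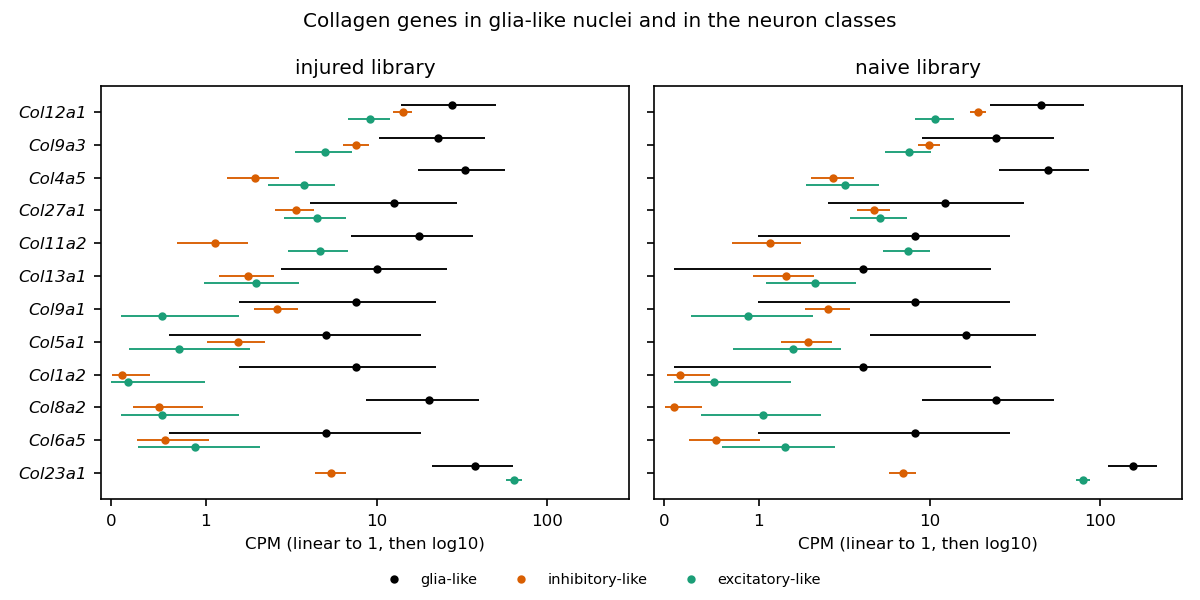
CPM with 95% Poisson intervals of the 11 collagen genes that marked glia-like nuclei, and of Col23a1, in glia-like (black), inhibitory-like (orange) and excitatory-like (green) nuclei of the injured (left) and naive library (right); the axis is linear to 1 and log10 beyond. The glia-like intervals of Col4a5 and Col8a2 lie clear of both neuron classes in each library, and most others are wide.

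Genes that modify, bind or accompany collagens were also split between classes. Of 28 measured genes that modify or process collagen, 4 marked inhibitory-like, 2 excitatory-like and 8 glia-like nuclei, against the same shares of all genes as above (3.63%, 6.08% and 12.4%). The inhibitory-like ones were P3h2 and P4ha3, which hydroxylate prolines, Colgalt2, which adds galactose to hydroxylysine, and Bmp1, which trims procollagen ends. P3h2 was at 117 injured and 117 naive CPM in inhibitory-like nuclei, against 48.7 injured and 31.0 naive CPM in excitatory-like nuclei. The excitatory-like ones were Plod1, a lysyl hydroxylase, and Adamts14, a procollagen peptidase. Plod1 and Bmp1 also marked glia-like nuclei. Their glia ratios were 19.9 injured and 25.04 naive for Plod1, and 3.41 injured and 4.62 naive for Bmp1. The glia-like ones included the lysyl hydroxylase Plod2, at 98.5 injured and 127 naive CPM, and Serpinh1, the collagen chaperone, at 10.1 injured and 8.19 naive CPM. In glia-like nuclei 3 UMIs amount to 7.58 injured and 12.3 naive CPM. The Serpinh1 call therefore rests on very few counts, under 3 UMIs in the naive library. Of 12 collagen receptors, Itga11, a collagen-binding integrin, marked inhibitory-like nuclei, none marked excitatory-like nuclei, and the receptor kinase Ddr1 and the immune receptor Lair1 marked glia. Itga11 was at 19.4 injured and 22.2 naive CPM in inhibitory-like nuclei, against 9.46 injured and 6.20 naive CPM in excitatory-like nuclei. Ddr1 was at 119 injured and 159.8 naive CPM in glia-like nuclei. Lair1 was at 12.6 injured and 4.10 naive CPM there, the naive value again under that of 3 UMIs.

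Of 17 basement membrane partners, 3 marked inhibitory-like (17.6%, against 3.63% of all genes), 1 excitatory-like (5.88%, against 6.08%) and 6 glia-like nuclei (35.3%, against 12.4%). The laminin chain Lama2 was at 71.8 injured and 77.9 naive CPM in inhibitory-like nuclei, against 11.4 injured and 14.7 naive CPM in excitatory-like nuclei. Glia-like nuclei had more Lama2, at 149 injured and 123 naive CPM. Its glia ratios were 2.60 injured and 1.96 naive, just short of the call. Lama1 was at 22.6 injured and 20.4 naive CPM in inhibitory-like nuclei, against 3.93 injured and 4.60 naive CPM in excitatory-like nuclei. Ntn4, a laminin-related netrin, was the other one. The laminin chains Lamb1 and Lama5 were lower in inhibitory-like nuclei, with inhibitory-like over excitatory-like ratios of 0.519 injured and 0.465 naive for Lamb1 and 0.469 injured and 0.634 naive for Lama5. The laminin chain Lama3 marked excitatory-like and glia-like nuclei, and the glia-like ones also included Nid1, Nid2, Hspg2 (perlecan) and Sparc. In naive glia-like nuclei Lama3 was at 8.19 CPM, and Nid2 and Hspg2 at 4.10 CPM each. These values are under the 12.3 CPM of 3 UMIs, so those calls rest on very few counts.

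Between the injured and naive libraries most collagen genes stayed within 1.5-fold. Members with at least 100 UMIs in a class were compared, and 1.5-fold either way was taken as the limit. Of 23 members in inhibitory-like nuclei, 6 had a ratio of injured over naive CPM above 1 and 17 below, with a median log2 ratio of -0.24, against -0.09 over 12661 genes. None was higher by 1.5-fold (0.174% of all genes), and 1, Col5a3, was lower (2.28% of all genes were). Its ratio was 0.666 (0.548 to 0.810), and it differed by cluster, being 0.535 (0.371 to 0.762) in cluster 0 and 0.914 (0.689 to 1.21) in cluster 1. Cluster 5 had 0 injured and 21 naive Col5a3 UMIs. Next lowest were Col6a1 at 0.710 (0.646 to 0.780) and Col27a1 at 0.713 (0.502 to 1.005). The highest were Col25a1 at 1.26 (1.09 to 1.44), Col8a1 at 1.251 (1.13 to 1.38) and Col5a2 at 1.24 (1.09 to 1.42), all short of the limit.

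Of 13 members in excitatory-like nuclei, 4 were above 1 and 9 below, with a median log2 ratio of -0.11, against -0.07 over 9908 genes. Col8a1 was higher by 1.5-fold at 1.51 (1.09 to 2.12) (0.252% of all genes were higher), on 93 injured and 62 naive UMIs. By cluster its ratio was 2.44 (1.2004 to 5.37) in cluster 17 and 0.684 (0.315 to 1.43) in cluster 3. No member was lower by 1.5-fold (2.53% of all genes were lower). Col6a1 came nearest at 0.670 (0.572 to 0.784), and its ratio in the largest excitatory-like cluster, 3, was 0.690 (0.568 to 0.836). Among inhibitory-like clusters the Col6a1 ratio was 0.710 (0.619 to 0.814) in cluster 0 and 0.611 (0.460 to 0.808) in cluster 1, but 1.01 (0.810 to 1.26) in cluster 4 and 1.03 (0.768 to 1.38) in cluster 5, so not every cluster was lower in the injured library. Gene length moved with these ratios over all genes. In 4 bins of equal size, from the shortest to the longest genes, the median log2 ratio was -0.21, -0.13, -0.07 and 0.02 in inhibitory-like nuclei, and -0.20, -0.12, -0.06 and 0.03 in excitatory-like nuclei. Of the 23 inhibitory-like members, 16 were in the bin of longest genes, Col6a1 was in the second shortest and Col5a3 in the second longest, and the part of length was not tested. With clusters weighted the same in both libraries, Col5a3 in inhibitory-like nuclei was at 0.682 and Col8a1 in excitatory-like nuclei at 1.48, both short of 1.5-fold. Injury, pool and library cannot be told apart in this design.

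**Figure D5:**
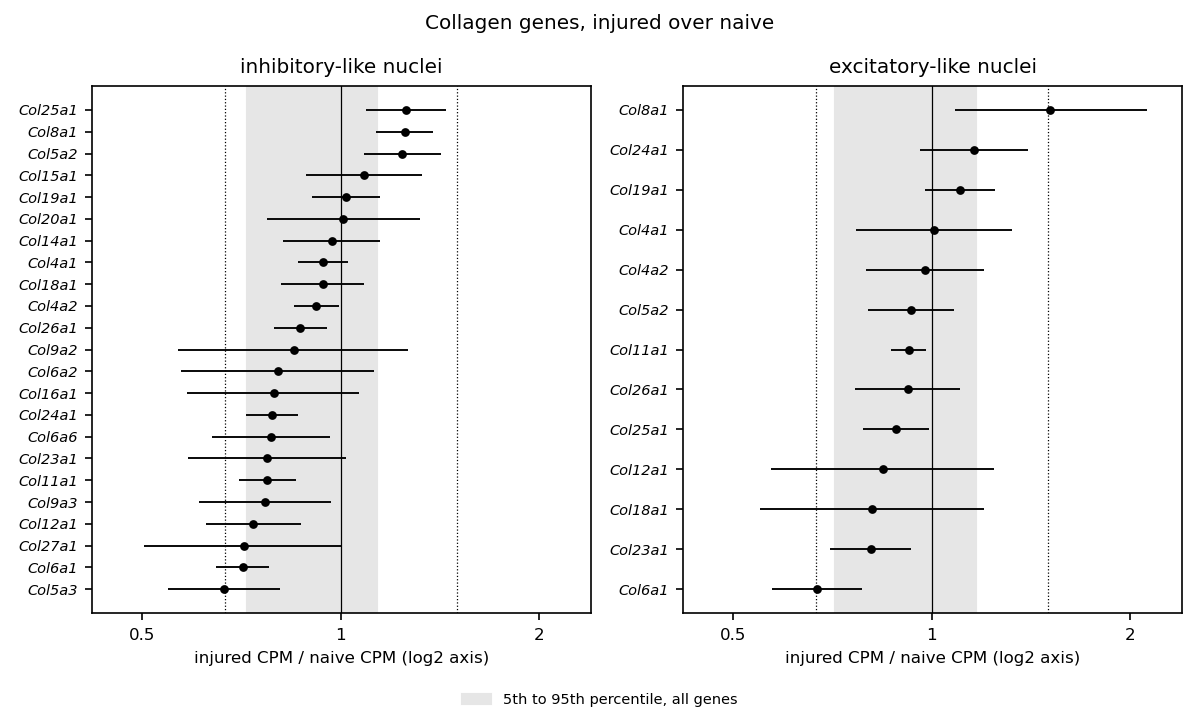
Ratio of injured to naive CPM (log2 axis) with 95% counting intervals for members reaching 100 UMIs within inhibitory-like (left, 23 genes) and excitatory-like nuclei (right, 13 genes); the gray band spans the 5th to 95th percentile of all genes in the class and dotted lines mark 1.5-fold. Col5a3 at 0.666 in inhibitory-like and Col8a1 at 1.51 in excitatory-like nuclei are the members past the limit.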

How the data were processed

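Nuclear RNA of 1 injured and 1 naive library was measured, each pooled from 8 mice. The authors deposited UMI counts per gene and nucleus, aligned to mm10 with Cell Ranger 3.0.2 and handled with Seurat, per the submitters' processing notes. The sources used here do not give the annotation, the filters applied to nuclei, or whether intronic reads and strand were used. The authors also deposited natural log values per library (natural log of 1 plus the count scaled to 10000 per nucleus), which served only to assign nuclei to libraries by barcode.

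Counts were scaled to 10000 per nucleus and clustered with scanpy 1.11.5 and leidenalg 0.10.2 (2000 variable genes, 30 components, 15 neighbours, resolution 1), with 146 genes kept out, all collagen genes among them. Classes were named from marker lists; no doublets were removed, and 203 injured and 192 naive nuclei held both Xist and Y-linked UMIs. UMIs were then summed per class and library and given as CPM with exact Poisson 95% intervals, and ratios with exact conditional binomial ones, using scipy 1.17.1. A denominator under 3 counts was set to 3. UMIs reflect transcript length and priming, so ratios of CPM were taken within a gene. The sums over members and the shares of UMIs held by single genes describe counts only. Members that marked a class and the 6 with most UMIs are described singly, with the cluster highest for each. Members compared between libraries had at least 100 UMIs in the class, and those past 1.5-fold or farthest from 1 are named; other genes and clusters were named after their values were seen. Members, lists and rules were chosen with earlier results of these data known. The ratio step was tested on simulated data. Alternatives changed the class definition, the weight of nuclei and clusters, the nuclei kept, and the thresholds.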

Additional observations from a re-analysis of the deposited data

Results flagged for a closer look

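The ratio of injured over naive CPM of Col25a1, the membrane collagen that binds amyloid beta, stood on opposite sides of 1 in the neuron classes. It was 1.26 (1.09 to 1.44) in inhibitory-like nuclei, with 459 injured and 375 naive UMIs, and 0.884 (0.788 to 0.991) in excitatory-like nuclei, with 566 injured and 646 naive UMIs. It was singled out for that difference in direction, which was not tested, since each group had 1 library. The clusters of a class did not all follow it. In inhibitory-like nuclei the ratio was 1.98 (1.40 to 2.82) in cluster 5, 1.22 (1.01 to 1.47) in cluster 11 and 0.218 (0.0748 to 0.528) in cluster 12. In excitatory-like nuclei it was 0.702 (0.545 to 0.9004) in cluster 3 and 1.29 (1.01 to 1.65) in cluster 18. With nuclei classed by their own marker counts it was 1.53 in inhibitory-like and 0.904 in excitatory-like nuclei. Without the 10% of nuclei with most UMIs it was 1.79 in inhibitory-like and 0.924 in excitatory-like nuclei. In nuclei with Xist and no Y-linked UMIs it was 1.30 in inhibitory-like and 1.08 in excitatory-like nuclei, both above 1, and without nuclei that held both it was 1.28 in inhibitory-like and 1.01 in excitatory-like nuclei.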

How the results depend on the processing

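No paired analysis was possible because each group had 1 library. The alternatives that added clusters 7 and 19 to the excitatory-like class, split nuclei by Xist and Y-linked UMIs, weighted clusters the same or left out the highest cluster were chosen after seeing the data. Of 60 counts under alternatives, 40 stayed within 1.5 times the main count and 20 did not. The 7 members marking inhibitory-like nuclei became 3 with nuclei classed by their own markers, 2 at a fold of 3, 4 with clusters 7 and 19 added, 4 in nuclei with Y-linked and no Xist UMIs, and 3 without the highest cluster. The 8 marking excitatory-like nuclei stayed within 1.5 times under every alternative run. The 11 marking glia-like nuclei became 7 at a fold of 3, 3 with a lower bound above 1, 6 in nuclei with Xist and no Y-linked UMIs, and 3 in nuclei with Y-linked and no Xist UMIs. Between libraries, the 1 member past 1.5-fold in inhibitory-like nuclei became 4 with nuclei classed by their own markers and 12 at a fold limit below 1.5. It became 0 with nuclei weighed the same, without nuclei holding both Xist and Y-linked UMIs, and with clusters weighted the same. The 1 in excitatory-like nuclei became 0 with nuclei classed by their own markers and with clusters weighted the same. It became 2 without nuclei holding both and at that lower limit, 3 in nuclei with Xist and no Y-linked UMIs, and 5 at a minimum of 50 UMIs. The causes were not tested. Of 557 values of single genes, 469 stayed within their main counting interval, 87 left it and 1 was labelled reversed. That was the injured log2 ratio of Col9a1 in inhibitory-like over excitatory-like nuclei, at -0.0348 in nuclei with Y-linked and no Xist UMIs. A ratio between libraries could be labelled reversed only if its main value was past 1.5-fold. Other crossings of 1 between libraries, such as those of Col25a1 in excitatory-like nuclei above, are therefore not in that count.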

Other observations

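Some members that marked no neuron class were concentrated in few clusters; they were chosen after their values were seen. Col14a1, a FACIT collagen, stood at 109.9 CPM in injured and 74.6 CPM in naive CSF-contacting neuron-like nuclei, and at 77.7 CPM in injured and 112 CPM in naive nuclei of inhibitory-like cluster 11. Col24a1, a fibrillar collagen, was highest in the Nos1 cluster 4, at 173 CPM in the injured and 166 CPM in the naive library. Col15a1, a basement membrane collagen related to Col18a1, was at 52.0 CPM in injured and 44.8 CPM in naive nuclei of inhibitory-like cluster 8, and at 34.4 CPM in injured and 49.4 CPM in naive nuclei of excitatory-like cluster 17.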
